A study of Rattus norvegicus with 8 samples.

Results

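Genes that build and run the light-sensing outer segment of retinal rods and cones were followed in the developing pineal gland of the rat. The 10 genes chosen by symbol encode the disc-rim proteins Prph2 and Rom1, the PDE6 subunits Pde6b, Pde6c and Pde6g, the channel subunits Cnga1 and Cnga3, the retinoid-binding proteins Rbp3 and Rlbp1, and the chaperone Aipl1. Of these, 9 had a row under their symbol, out of 16462 gene symbols in all, each with 1 RefSeq transcript. Pde6g was not analysed here, since the only row that carries this name does so as an older alias of Pde6h. Lights were on for 14 h and off for 10 h each day, and whole pineal glands of Sprague-Dawley rats were taken at embryonic day 21 (E21) and at postnatal days 5, 20 and 40 (P5, P20 and P40). At each age 1 library was made at mid-day (zeitgeber time 7) and 1 at mid-night (zeitgeber time 19), 8 libraries in all. The pools for mid-day and mid-night held 13 and 15 animals (E21), 17 and 19 (P5), 13 and 10 (P20), and 3 and 3 (P40). The study was set up to describe how the transcriptome changes with age and which transcripts differ between day and night.

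In retinal photoreceptors, light activates an opsin and its G protein, the G protein activates PDE6, and PDE6 hydrolyses cyclic GMP, which closes the cyclic nucleotide-gated channels of the outer segment. Rods and cones use different genes for most of these parts, while Prph2 and Rom1 shape the rims of the membrane discs in both. Pinealocytes of mammals share an origin with photoreceptors and keep many of their transcripts, although the adult gland of mammals takes its timing from the eye through sympathetic nerves.

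The promoters of these genes are shown first, as a description. RefSeq (build GRCr8) held a promoter for 8 of the 9 genes, and Pde6c was not among them. The 250 bases before the annotated start were searched on both strands for TAATCC, the core bound by the homeodomain factors Crx and Otx2 (read on the other strand it is GGATTA). This core was present in 3 of the 8, against 6.34% of 33469 rat promoters of the same length. The 3 are shown with the core in capitals, followed by Rom1, which had none. Coordinates on GRCr8 are chr16:9273537-9273786 on the plus strand, chr9:21579075-21579324 on the minus strand, chr10:57163456-57163705 on the minus strand and chr1:215255164-215255413 on the minus strand.
Rbp3: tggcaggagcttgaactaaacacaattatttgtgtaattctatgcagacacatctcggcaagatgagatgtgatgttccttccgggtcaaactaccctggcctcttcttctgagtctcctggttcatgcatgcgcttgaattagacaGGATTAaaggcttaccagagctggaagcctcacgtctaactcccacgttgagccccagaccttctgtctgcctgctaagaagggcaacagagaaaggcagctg
Prph2: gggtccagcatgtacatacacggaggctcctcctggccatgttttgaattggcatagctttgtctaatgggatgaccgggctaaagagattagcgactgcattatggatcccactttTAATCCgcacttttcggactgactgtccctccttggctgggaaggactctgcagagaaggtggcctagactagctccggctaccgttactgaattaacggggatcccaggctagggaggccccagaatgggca
Aipl1: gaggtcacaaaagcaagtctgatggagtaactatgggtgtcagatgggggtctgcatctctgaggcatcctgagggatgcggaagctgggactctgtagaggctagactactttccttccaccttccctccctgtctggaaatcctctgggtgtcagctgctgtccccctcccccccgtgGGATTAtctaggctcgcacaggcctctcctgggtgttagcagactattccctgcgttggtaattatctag
Rom1: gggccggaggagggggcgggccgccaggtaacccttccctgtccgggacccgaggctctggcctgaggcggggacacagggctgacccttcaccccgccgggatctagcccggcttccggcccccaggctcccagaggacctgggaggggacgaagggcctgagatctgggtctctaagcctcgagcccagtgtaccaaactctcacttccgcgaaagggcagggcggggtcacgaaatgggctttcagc
The first base of the core lay 103 bases before the start in Rbp3, 133 in Prph2 and 70 in Aipl1. The homeobox core TAATTA was in 1 of the 8 (Aipl1), against 4.86% of all promoters. CANNTG, the box of helix-loop-helix factors, was in 5 of the 8, against 65.5%. The homeobox cores share their first 4 letters but differ in the last 2, so they cannot start at the same base of 1 strand. A match describes the letters of this window and not binding, which was not measured.

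Levels are deposited FPKM, which divide a transcript's fragments by its length and by the library's size. The values sum to different totals in the 8 libraries, and read totals are not part of them. From the smallest steps between values of short olfactory receptor transcripts, 1 fragment on a 1-kb transcript was worth between 0.0279 FPKM (P40 mid-night, the deepest) and 0.0679 FPKM (P20 mid-day, the shallowest, at a relative depth of 0.411). Of 10 pinealocyte markers, Crx lay between 104 and 195 FPKM and Tph1, the tryptophan hydroxylase of melatonin synthesis, between 331 and 2756 FPKM. Others were low in some libraries: Asmt, the last enzyme of melatonin synthesis, was at 0.432 and 1.19 FPKM at E21, and Aanat, its rhythmic enzyme, at 1.72 FPKM at P40 mid-day. Of 10 retinal pigment epithelium markers, 6, Rpe65 and Best1 among them, stayed under 1 FPKM in all libraries. The other 4 were present at E21: Pmel at 18.7 and 15.6 FPKM, Tyrp1 at 8.12 and 4.30, Rrh at 1.93 and 1.06, and Ttr, which choroid plexus also makes, at 1045 and 1299. In whole glands, fewer cells of a type and less RNA per cell cannot be told apart. There are only 8 pools, 2 at each age, and no 2 share an age and a time. The p-values of the main limma fits thus do not rest on repeats of 1 condition. They rest on how far the difference between mid-day and mid-night varied among ages, with a spread shared over transcripts.

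Of the 9 genes, 7 reached 1 FPKM in at least 2 libraries and were tested, among 9960 transcripts, with limma on log2(FPKM + 1), using age and time of day as terms. All 7 changed with age (F test, adjusted p from 0.000128 to 0.0162), against 36.4% of all transcripts tested. Between E21 and P5, 5 rose and 0 fell: Rom1, Pde6c, Prph2, Rbp3 and Aipl1. Of all transcripts, 8.29% rose and 6.84% fell in that step (15.1% together). These 1507 calls dropped to 570 or 865 when the mid-day or the mid-night library of E21 was left out, and to 436 or 627 likewise for P5. Between E21 and P40, 6 rose and 1 fell, the rise now including Cnga1 and the fall being Rlbp1, against 16.1% and 26.8% of all transcripts (42.9% together). These 4276 calls were between 2323 and 2757 when an E21 or P40 library was left out. The median change of the 7 was 1.71 from E21 to P5 and 1.88 from E21 to P40, beside medians of -0.04 and -0.18 for all transcripts. Those that missed the filter, Pde6b and Cnga3, are given as values.

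**Figure D1:**
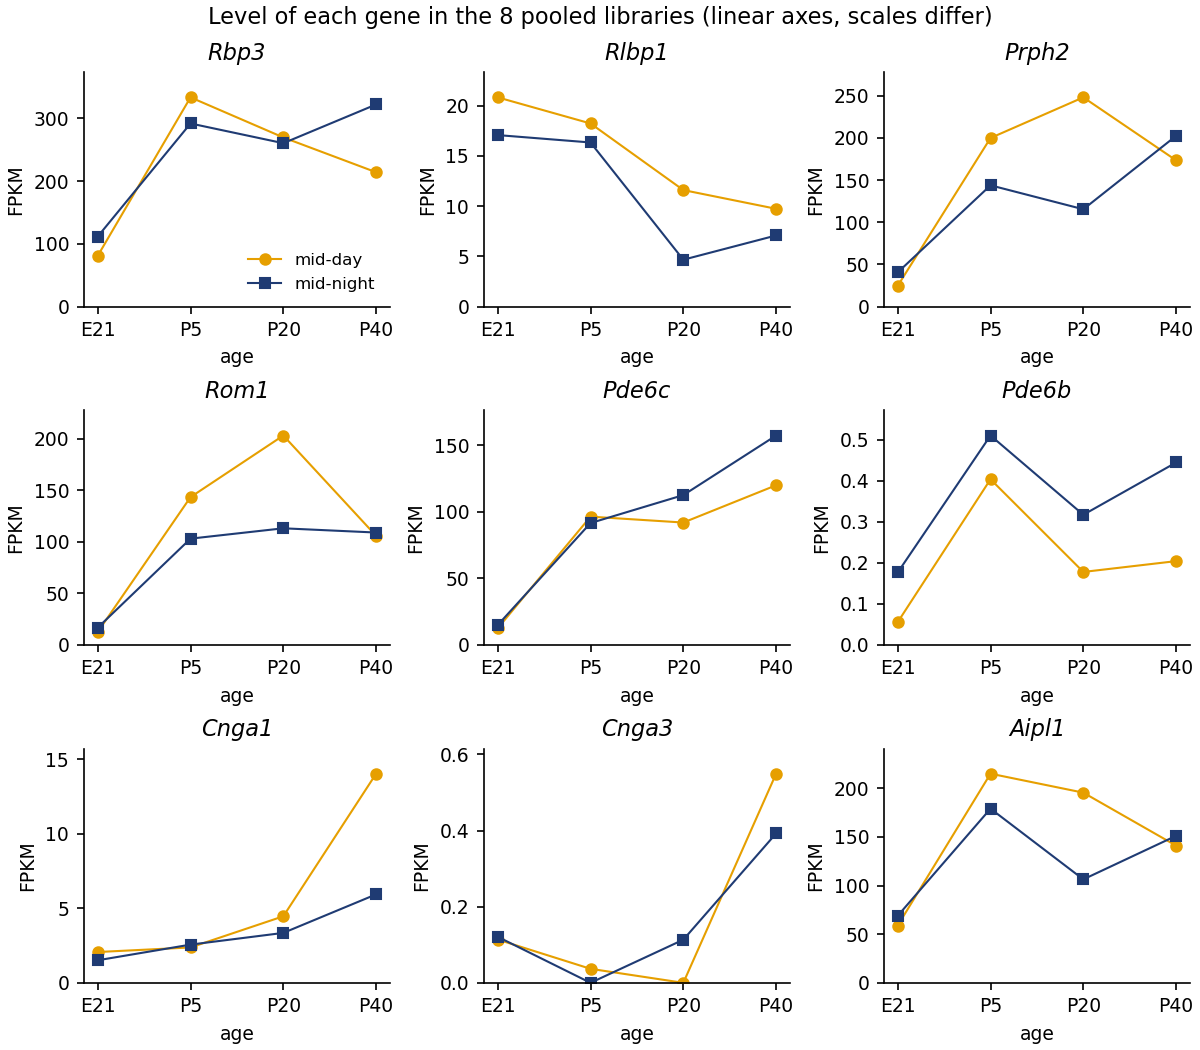
FPKM of the 9 genes (linear y axes, scales differ) at each age (x axis), with 1 point for each pooled library, circles for mid-day and squares for mid-night; lines join libraries of the same time of day. Rom1, Pde6c, Prph2, Rbp3 and Aipl1 were higher in all P5 to P40 libraries than in both E21 libraries, Rlbp1 was lower at P20 and P40, and Pde6b and Cnga3 stayed under 0.6 FPKM.

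Among the disc proteins, Rom1 (chromosome 1, 211604295 to 211606303 on rn4) changed most in the first step. Given as mid-day, then mid-night, as in all pairs here, its levels were 12.3 and 16.5 FPKM at E21, 143 and 103 (P5), 203 and 113 (P20), and 106 and 109 (P40). Every later library was above both E21 libraries, while the range of P5 overlapped with those of P20 and P40. The rise from E21 to P5 was 3.01 ± 0.30 on the log2(FPKM + 1) scale (SE; limma, adjusted p = 0.00134), and P40 stood 2.83 ± 0.30 above E21 (adjusted p = 0.00036). Prph2, its partner in the disc rim, lies on chromosome 9 (9251024 to 9272513). Its levels were 24.5 and 40.5 FPKM at E21, 199.95 and 144 (P5), 248 and 115 (P20), and 173 and 203 (P40). Here too both E21 libraries lay below the 6 others, and P20 held both the highest and the lowest of the 6. Prph2 rose by 2.39 ± 0.40 to P5 (adjusted p = 0.00813) and by 2.53 ± 0.40 to P40 (adjusted p = 0.00203). Without the P5 mid-day library, which left 1 library at P5, the step to P5 did not pass (2.18, adjusted p = 0.0851).

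Per length, Prph2 exceeded Rom1 in all 8 libraries. The ratio of Prph2 to Rom1 was 1.997 and 2.45 at E21, 1.395 and 1.396 (P5), 1.22 and 1.02 (P20), and 1.64 and 1.86 (P40). As log2 ratio it averaged 0.81 ± 0.40 (SD, n = 4) over E21 and P5 and 0.48 ± 0.39 (SD, n = 4) over P20 and P40, values that overlapped. The difference of -0.33 did not pass an exact two-sided permutation test (p = 0.286, adjusted p = 0.343 over 4 ratios, smallest possible p = 0.0286).

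Of the PDE6 catalytic subunits, the cone form was by far the more abundant transcript. Pde6c, the cone catalytic subunit (chromosome 1, 242459653 to 242515102), stood at 12.3 and 14.7 FPKM at E21, 96.2 and 91.4 (P5), 91.8 and 112 (P20), and 120 and 157 (P40). The E21 libraries lay apart from all others and the P40 libraries were the highest 2. Pde6c rose by 2.71 ± 0.20 to P5 (limma, adjusted p = 0.000487) and by 3.26 ± 0.20 to P40 (adjusted p = 4.04e-05), and both changes passed under all alternatives tried. Pde6b, a rod catalytic subunit (chromosome 14, 1871037 to 1914170), stood at 0.0550 and 0.176 FPKM at E21, 0.404 and 0.510 (P5), 0.177 and 0.317 (P20), and 0.204 and 0.445 (P40). It was under 1 FPKM throughout, with its lowest value in the E21 mid-day library, and it did not enter the main fits.

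Per length, Pde6c was between 83.6 and 587 times as high as Pde6b in the 8 libraries. The log2 ratio, taken after adding 0.1 FPKM to both, averaged 6.72 ± 0.84 (SD, n = 4) over E21 and P5 and 8.31 ± 0.24 (SD, n = 4) over P20 and P40. These did not overlap, yet the difference of 1.59 did not pass once adjusted over the 4 ratios (exact permutation p = 0.0286, adjusted p = 0.0571). Both P5 log2 ratios (7.58 and 7.23) already lay above both of E21 (6.32 and 5.75). Pde6a, the other rod catalytic subunit, was low as well, at 0.423 and 0.342 FPKM at E21, 2.001 and 2.33 (P5), 1.26 and 1.24 (P20), and 0.901 and 0.642 (P40). It rose by 1.19 ± 0.18 from E21 to P5 (limma, adjusted p = 0.00583). Pde6h, the cone inhibitory subunit, was listed at 0 in 6 libraries and reached 0.125 FPKM at most. Pde6d, a prenyl-binding protein that carries PDE6 and other lipidated proteins, ranged from 9.75 to 17.3 FPKM. Pde6a, Pde6h and Pde6d are named here after their values were seen, as relatives of the same enzyme.

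Aipl1, a chaperone that PDE6 needs in order to fold, lies on chromosome 10 (58879846 to 58890493). It stood at 58.9 and 68.9 FPKM at E21, 215 and 179 (P5), 195 and 106 (P20), and 141 and 151 (P40). In both E21 libraries it was above Pde6c, and its mean was highest at P5, when both libraries exceeded those of P40. Aipl1 rose by 1.61 ± 0.30 to P5 (limma, adjusted p = 0.0115) and by 1.18 ± 0.30 to P40 (adjusted p = 0.0151). To P5 the estimate was 1.32 without E21 mid-day (adjusted p = 0.0764), 1.57 without P5 mid-day (0.0962) and 1.65 when P5 mid-night was left out (0.0722), none of which passed. To P40 it was 0.90 without E21 mid-day (0.0986) and 0.98 without P40 mid-night (0.125), which did not pass either.

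**Figure D2:**
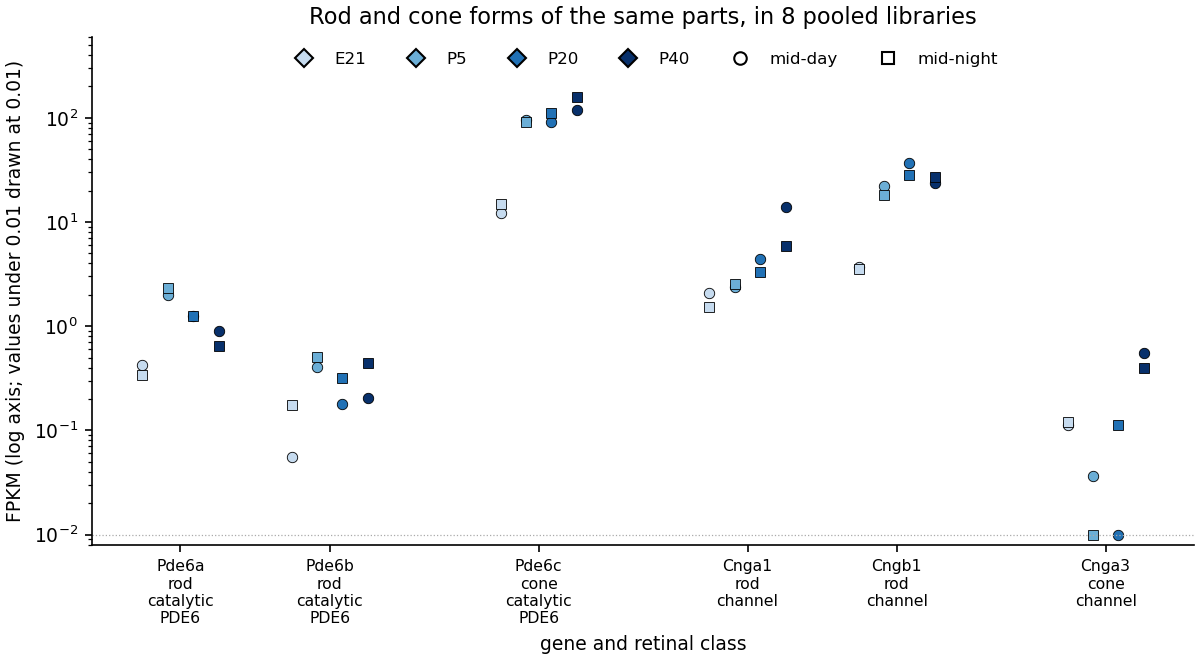
FPKM (log y axis, values under 0.01 drawn at 0.01) of rod and cone forms of PDE6 and the channel (x axis, with the retinal class of each), 1 point per pooled library, shaded by age, circles for mid-day and squares for mid-night. Pde6c lay between 12.3 and 157 FPKM while Pde6b stayed under 0.6, and Cnga1 and Cngb1 exceeded Cnga3 in every library. The cone beta subunit Cngb3 was not found.

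Of the channel subunits found, those of rods were the more abundant. Cngb3, the cone beta subunit, was not found, so Cnga3 alone stands for the cone channel. Cnga1, the alpha subunit of the rod channel (chromosome 14, 38017762 to 38033098), was found at 2.06 and 1.51 FPKM at E21, 2.37 and 2.56 (P5), 4.46 and 3.35 (P20), and 14.0 and 5.93 (P40). The 4 ages did not overlap, and the P40 mid-day library stood far above the rest. From E21 to P5 the change was 0.32 ± 0.28 (limma, adjusted p = 0.472), from P5 to P20 0.49 ± 0.28 (adjusted p = 0.323) and from P20 to P40 1.07 ± 0.28 (adjusted p = 0.378). No single step passed, but over the whole span from E21 to P40 Cnga1 rose by 1.88 ± 0.28 (adjusted p = 0.00155), and without the P40 mid-day library by 1.41. By limma, 0% of the 9960 transcripts passed between P20 and P40, while 669 had an unadjusted p under 0.05, Cnga1 among them.

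Cnga3, the cone alpha subunit (chromosome 9, 36180295 to 36203098), was at 0.114 and 0.121 FPKM at E21, 0.0368 and 0 (P5), 0 and 0.113 (P20), and 0.550 and 0.393 (P40). These values come from few fragments, and both P40 libraries held the highest of them. In the 6 libraries where Cnga3 was above 0, its level was between 0.0155 and 0.08 of that of Cnga1. The log2 ratio of Cnga3 to Cnga1 was -3.78 ± 0.84 (SD, n = 4) over E21 and P5. Over P20 and P40 it was -4.40 ± 0.82 (SD, n = 4). Each SD includes the gap between the 2 ages pooled. The difference did not pass (exact permutation p = 0.343, adjusted p = 0.343). Where Cnga3 was 0 (P5 mid-night and P20 mid-day), the 0.1 FPKM added sets its side of the ratio. With 1 FPKM added in place of 0.1, the difference of -0.62 became -0.96 and passed (exact permutation, adjusted p = 0.0381). As Cnga3 never exceeded 0.550 FPKM, the ratio with 1 FPKM added mostly follows Cnga1. Cngb1, the beta subunit that joins Cnga1 in the rod channel, stood higher than either, at 3.62 ± 0.102 FPKM at E21, 20.1 ± 2.69 at P5, 32.7 ± 6.10 at P20 and 25.3 ± 2.15 at P40 (mean ± SD, n = 2 libraries). Unlike the estimate for Cnga1, that for Cngb1 passed already at P5, at 2.19 ± 0.19 (limma, adjusted p = 0.000843); the difference between them was not tested.

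The retinoid carriers went opposite ways. Rbp3, the retinoid-binding protein of the space between photoreceptors and pigment epithelium (chromosome 16, 9578549 to 9587017), was the highest of the 9 genes at every age. It stood at 80.8 and 112 FPKM at E21, 334 and 292 (P5), 270 and 260 (P20), and 214 and 322 (P40). Among 16932 transcripts it ranked 169 and 77 at E21, 21 and 28 (P5), 38 and 36 (P20), and 44 and 30 (P40). It rose by 1.71 ± 0.29 to P5 (limma, adjusted p = 0.00825) and stood 1.46 ± 0.29 above E21 at P40 (adjusted p = 0.00535). The call at P5 was lost without E21 mid-day (adjusted p = 0.0542) or P5 mid-day (0.0844), and that at P40 without P40 mid-night (0.0648).

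Rlbp1, which binds 11-cis-retinal and in the eye belongs to pigment epithelium and Mueller glia, lies on chromosome 1 (135122063 to 135135420). It stood at 20.8 and 17.1 FPKM at E21, 18.2 and 16.3 (P5), 11.6 and 4.66 (P20), and 9.72 and 7.07 (P40). E21 and P5 overlapped, P20 and P40 overlapped, and the younger 4 libraries lay above the older 4. It fell by 1.09 between E21 and P40 (limma, SE 0.25, adjusted p = 0.0108). The step from P5 to P20 was -1.11 ± 0.25 (adjusted p = 0.0401), against 5.99% of all transcripts that fell, 1.02% that rose and 7.02% in either direction. That call was lost in 10 of 17 alternatives, with adjusted p between 0.0311 and 0.335 over all 17, among them 0.335 without P5 mid-night, 0.216 without P20 mid-night, 0.0826 without P5 mid-day, 0.0621 without P40 mid-day and 0.0606 without P40 mid-night. The fall to P40 was lost without E21 mid-night (adjusted p = 0.0644), P40 mid-day (0.0671) or P40 mid-night (0.0521).

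Within a library, Rbp3 exceeded Rlbp1 by 3.88 and 6.54 times at E21, 18.3 and 17.9 (P5), 23.3 and 55.9 (P20), and 22.0 and 45.6 (P40). Both P5 ratios already lay above both E21 ratios. The log2 ratio averaged 3.25 ± 1.11 (SD, n = 4) over E21 and P5 and 5.06 ± 0.67 (SD, n = 4) over P20 and P40. The sets did not overlap, and the difference of 1.81 gave the smallest p possible, 0.0286, which did not pass when adjusted over the 4 ratios (exact permutation, adjusted p = 0.0571). Markers of other cells moved with age as well. Of 4 pigment epithelium genes tested, 3 fell between E21 and P40 and 0 rose, Pmel going from 17.1 ± 2.15 to 0.0645 ± 0.0405 FPKM and Tyrp1 from 6.21 ± 2.70 to 0.633 ± 0.641 FPKM (mean ± SD, n = 2). Already from E21 to P5, 3 of these genes fell and 1 rose, against 6.84% and 8.29% of all transcripts. At P5 Pmel averaged 5.60 and Tyrp1 2.20 FPKM. The estimate for Rlbp1 in that step was -0.12 ± 0.25 (limma, adjusted p = 0.782). The 10 genes of the pigment epithelium list summed to 1074 and 1321 FPKM at E21 and 534 and 774 FPKM at P40, of which Ttr made 1045, 1299, 532 and 773 FPKM. From E21 to P40, 26.8% of all transcripts fell and 16.1% rose. Of 10 astrocyte and Mueller glia genes, 4 fell and 5 rose. Their summed level was 409 and 379 FPKM at E21 and 659 and 603 FPKM at P40, of which Apoe made 35.1 and 35.6 FPKM at E21 and 454 and 372 FPKM at P40. The part of these cells in the change of Rlbp1 was not tested.

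**Figure D3:**
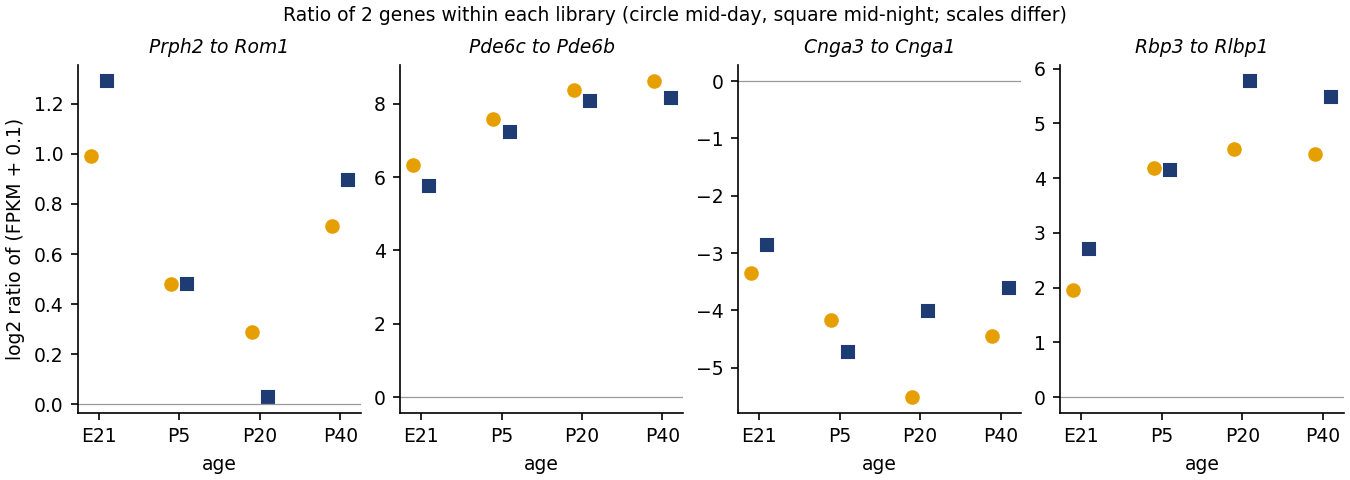
Log2 ratio of (FPKM + 0.1) of 2 genes within each library (y axes, scales differ) at each age (x axis), circles for mid-day and squares for mid-night. The ratios of Pde6c to Pde6b and of Rbp3 to Rlbp1 were higher in all 4 libraries of P20 and P40 than in all 4 of E21 and P5, while those of Prph2 to Rom1 and Cnga3 to Cnga1 overlapped.

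The order of the genes changed with age. At E21 it ran Rbp3, Aipl1, Prph2, Rlbp1, Rom1, Pde6c and Cnga1 from the highest, with Cnga3 and Pde6b last, and only Rom1 with Pde6c and Cnga3 with Pde6b overlapped among neighbours. At P40 it ran Rbp3, Prph2, Aipl1, Pde6c, Rom1, Cnga1, Rlbp1, Cnga3 and Pde6b. There Aipl1 with Pde6c, Cnga1 with Rlbp1, and Cnga3 with Pde6b overlapped. At P20, Prph2, Rom1 and Aipl1 each overlapped with the next gene in order, the last of these being Pde6c.

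**Figure D4:**
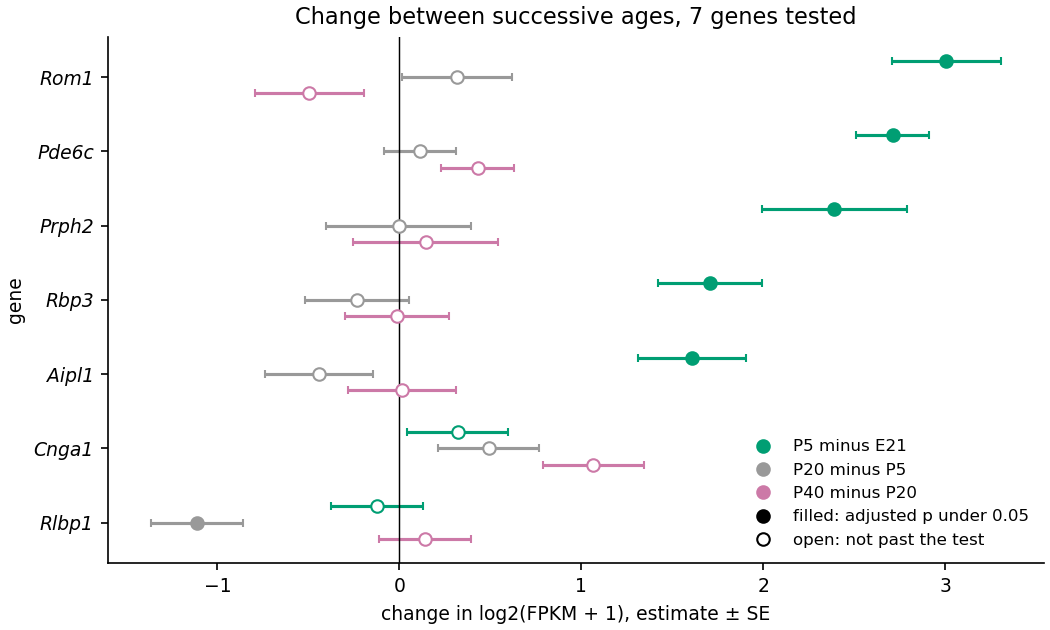
Estimated change in log2(FPKM + 1) ± SE (x axis) for the 7 genes tested (y axis) in each step between successive ages, filled where the adjusted p was under 0.05. Rom1, Pde6c, Prph2, Rbp3 and Aipl1 passed in the step from E21 to P5 and in neither later step, Cnga1 passed in none, and Rlbp1 passed from P5 to P20.

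After P5, the 5 genes that had risen showed no step that passed. From P5 to P20 their estimates lay between -0.44 (Aipl1) and 0.32 (Rom1), and from P20 to P40 between -0.49 (Rom1) and 0.43 (Pde6c), with SEs of 0.20 to 0.40. Changes of this size cannot be told from 0 in these libraries, which does not show that levels were stable. The step to P5 coincided with other changes in the glands. Of 10 pinealocyte markers 7 rose and 0 fell, their summed level going from 601 and 561 FPKM at E21 to 3163 and 2557 FPKM at P5. Of 11 choroid plexus markers 9 rose and 0 fell, with sums of 1387 and 1670 FPKM at E21 and 3260 and 18029 FPKM at P5. Dividing-cell markers fell in 5 of 6 cases and matrix markers in 4 of 8. Among all transcripts, 8.29% rose and 6.84% fell in that step. The part of these marker changes in the rise of the 5 genes was not tested. Leaving out P5 mid-night, where choroid plexus markers were highest, the log2 rise was 3.18 for Rom1, 2.90 for Pde6c, 2.60 for Prph2, 1.97 for Rbp3 and 1.65 for Aipl1, of which Aipl1 did not pass. The number of genes called was 3 without E21 mid-day and 2 without P5 mid-day, and for P40 it was 4 without P40 mid-night.

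None of the 7 genes passed a limma test between mid-day and mid-night. One fit gave the younger ages (E21, P5) and the older ages (P20, P40) a night effect each. At the older ages 0 of the 7 genes differed by limma, while 4.39% of all transcripts did. Of these, 279 were higher (2.8%) and 158 lower (1.59%) at night, or 390 and 121 once library medians were set equal. These 437 calls were between 166 and 183 when a P20 or P40 library was left out, and 287 or 266 without the mid-day or the mid-night library of P5. Of the 7, 2 had an unadjusted p under 0.05 there, Rlbp1 and Cnga1, as did 2002 of all 9960 transcripts. At E21 and P5, 0 of the 7 differed by limma, against 0.0301% of all transcripts (0.0201% higher, 0.01% lower). An unadjusted p under 0.05 was found there for 0 of the 7 and for 566 of all 9960 transcripts. The difference between the 2 night effects passed for 0 of the 7, against 0.753% of all transcripts (0.612% higher, 0.141% lower). Its unadjusted p was under 0.05 for 0 of the 7 and for 1299 of all 9960 transcripts. Over all 4 ages 0 of 7 passed by limma as well, as did 0% of all transcripts. Rlbp1 alone of the 7 had an unadjusted p under 0.05 there, as did 1011 of all 9960 transcripts. Rlbp1 was lower at mid-night at 4 of 4 ages, and at P20 and P40 its night effect was -0.78 ± 0.21 (adjusted p = 0.0812). Cnga1 was lower at mid-night at 3 of 4 ages, with -0.72 ± 0.22 at P20 and P40 (adjusted p = 0.126). Pde6b was higher at mid-night at 4 of 4 ages, all under 0.6 FPKM, and it did not enter these fits.

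Within 1 age, with 1 library at each time and no test, 3 differences between values of at least 2 FPKM on the higher side reached 2-fold, all higher by day. At P20 mid-day Prph2 was 2.15 times and Rlbp1 2.49 times as high as at mid-night, where 6.4% of transcripts with at least 2 FPKM were at least 2-fold higher by day. At P40 mid-day Cnga1 was 2.36 times as high, against 3.35% of transcripts. The share of transcripts at least 2-fold higher by day was 2.52% at E21 and 0.593% at P5, and the share higher by night was 1.46% (E21), 3.46% (P5), 3.97% (P20) and 4.84% (P40). Rbp3, Prph2, Rom1 and Aipl1 had the same signs at each age, higher at mid-night at E21 and P40 and lower at P5 and P20. Their log2 differences at P20 were -0.05, -1.10, -0.84 and -0.87 in that order, in an age at which the median over all tested transcripts was -0.16. Pde6c went the other way at P20, with 0.29.

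**Figure D5:**
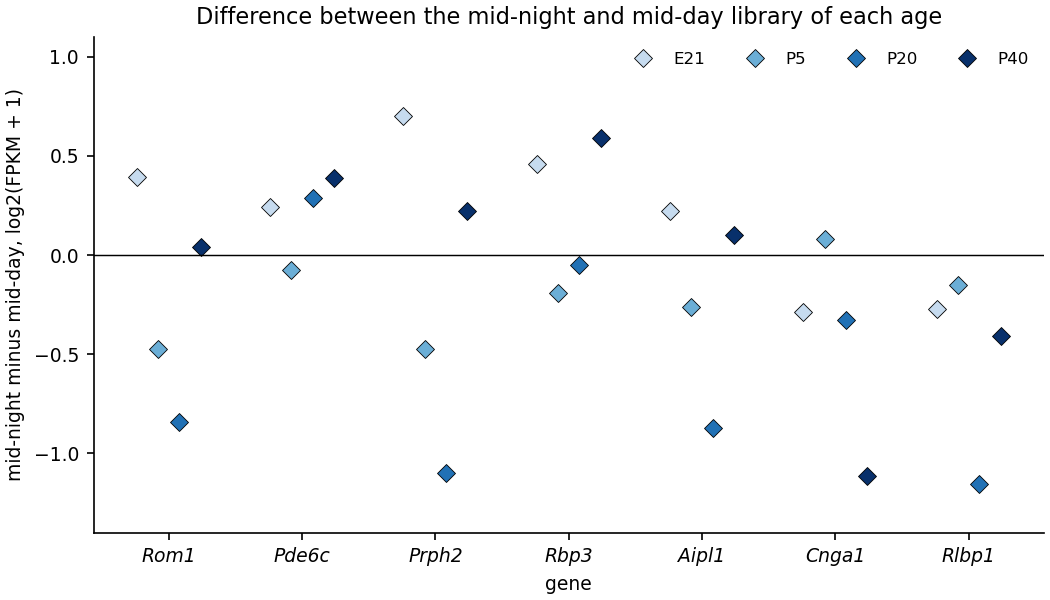
Mid-night minus mid-day difference in log2(FPKM + 1) (y axis) for the 7 genes tested (x axis), 1 point per age from 1 library at each time, shaded by age. Rlbp1 lay below 0 at all 4 ages, and Prph2, Rom1 and Aipl1 lay lowest at P20 and above 0 at E21 and P40.

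Other genes of the same pathway moved both ways. The lists used here were chosen with earlier results of these data known. Of 14 further PDE6, channel and cyclic GMP genes found, 9 were tested. From E21 to P5, 6 rose and 0 fell, with a median of 2.19, and from E21 to P40 6 rose and 1 (Slc24a4) fell, with a median of 2.51. Among all transcripts, 8.29% rose and 6.84% fell to P5, and 16.1% rose and 26.8% fell to P40. By mean over the 8 libraries, which hides that the order differed between ages, the highest were Guca1b and Guca1a, the calcium-sensing activators of guanylate cyclase, then Cngb1 and the cation exchanger Slc24a1. Guca1b went from 17.7 ± 0.00141 FPKM at E21 to 130 ± 24.0 at P40, and Guca1a from 0.577 ± 0.350 to 36.6 ± 6.38. Slc24a1 went from 1.31 ± 0.345 to 39.8 ± 0.962 (mean ± SD, n = 2 libraries).

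Of 17 further outer segment and cilium genes found, 16 were tested. To P5, 5 rose and 1 fell (median 0.49), where 15.1% of all transcripts were called. To P40, 5 rose and 4 fell (median 0.38), where 42.9% of all transcripts were called. Tulp1, a photoreceptor tubby-like protein, went from 22.9 ± 4.65 to 142 ± 18.7 FPKM between E21 and P40, and the scaffold gene Mpp4 from 4.22 ± 0.405 to 148 ± 13.6 FPKM (n = 2). Impg2, of the matrix between photoreceptors, stood at 103 ± 2.75 FPKM at E21 and 102 ± 13.7 FPKM at P40. Unc119, a carrier of lipidated transducin, stood at 72.8 ± 3.62 and 90.9 ± 9.67 FPKM, and it rose to P5 (0.97 ± 0.25, limma, adjusted p = 0.0369).

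Further retinoid genes moved both ways. Of 22 found, 16 were tested, with 2 up and 3 down to P5 (median 0.15) and 3 up and 6 down to P40 (median -0.43). Of all transcripts, 15.1% were called to P5 and 42.9% to P40. The calls at P5 were few and numbered 0 without E21 mid-day, 1 without P5 mid-day, or 3 if P5 mid-night was dropped. Stra6, the membrane receptor for plasma retinol-binding protein, fell from 24.3 ± 6.46 to 0.564 ± 0.0380 FPKM between E21 and P40, and Rbp4, that plasma protein, from 32.1 ± 2.96 to 8.42 ± 0.592 FPKM. Rdh11, a retinol dehydrogenase, rose from 13.2 ± 0.210 to 29.5 ± 3.85 FPKM, and Aldh1a1, which makes retinoic acid, from 7.06 ± 3.28 to 25.6 ± 0.185 FPKM (n = 2). Rpe65 and Lrat, which regenerate the chromophore in pigment epithelium, were at most 0.167 and 0.123 FPKM in any library.

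Among the opsins, Opn1sw, the short-wavelength cone opsin, went from 3.29 ± 1.22 FPKM at E21 to 19.3 ± 1.32 at P5 and 37.6 ± 13.0 at P40 (mean ± SD, n = 2). It rose by 2.27 ± 0.27 to P5 (limma, adjusted p = 0.00245) and by 3.16 ± 0.27 to P40 (adjusted p = 0.000154). Opn3 and Opn4, opsins that rods and cones do not use for vision, stayed under 1 FPKM, and Opn5 was listed at 0 in all 8 libraries.

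Of 10 transcription factors of photoreceptors found, 9 were tested. From E21 to P5, 0 rose and 3 fell, and to P40 2 rose and 3 fell, where 6.84% of all transcripts fell to P5 and 42.9% were called to P40. To P5 the count was 1 without E21 mid-day, P5 mid-day or P5 mid-night, and to P40 it was 3 without E21 mid-day, 2 without P40 mid-day and 3 without P40 mid-night. Otx2 stood at 270 ± 4.80 FPKM at E21 and 176 ± 59.8 at P40, Crx at 111 ± 6.00 and 150 ± 63.1, and Neurod1 at 137 ± 5.06 and 110 ± 6.79 (mean ± SD, n = 2). The retinoid receptor gene Rxrg rose from 29.8 ± 0.867 to 54.4 ± 15.0 FPKM.

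The transcripts whose profile over the 8 libraries was most like that of each gene were taken from those with a mean of at least 5 FPKM, by Pearson's r of log2(FPKM + 1). All 8 libraries share the age axis, so high values are common, and r is given as a description. Closest to Prph2 was Laptm4b (0.996), to Pde6c Ctnna1, alpha-catenin (0.996), and to Rbp3 Mapk8ip1 (0.988). Closest to Aipl1 was Rnf123 (0.988), to Cnga1 Atp8b2 (0.974) and to Rlbp1 Psmc2, a proteasome subunit (0.995). Among those most like Rom1 were Fam57b (0.990) and Sptb (0.988). The second and the third were Cox8a and Mfge8 for Prph2, Usp46 and Ghitm for Pde6c, and Hap1 and Gfpt1 for Rbp3. For Aipl1 they were Eefsec and Vps39, for Cnga1 Cdh2 and Pik3r3, and for Rlbp1 Strada and Grpel2.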

How the data were processed

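Per the submitters' processing notes, reads were handled by TopHat (version 1.3.1) and Cufflinks (version 1.2.0), and the build was rn4. The authors deposited FPKM, 1 value for each of 16932 RefSeq transcripts and library; filters and further scaling are not given in the sources used here. Per the labels' protocols, polyadenylated RNA was primed at random; whether strand was kept is not stated. No other transcript overlapped the 9 genes. Gene starts, counted from 0 in the deposited values (1189 of 1192 olfactory receptor spans are then multiples of 3), are printed counted from 1.

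Values were tested as log2(FPKM + 1), which understates changes of low genes, by limma (version 3.58.1, R version 4.3.3). Of all transcripts, 9960 reached 1 FPKM in 2 or more libraries and entered the fit. Tests were two-sided with a trended prior, and a call needed a Benjamini-Hochberg p below 0.05. Residual degrees of freedom were 3, and 2 in the night fit. Ratios used a pseudocount of 0.1 and exact permutation, which ignored pairing by age. The 4 libraries on each side are 2 ages at 2 times of day, not replicates of 1 condition. Of 5 planned ratios, that of Pde6g to Pde6b was not run, and the planned protein comparison was not used here. All 10 genes were to be described; from each other list the 4 highest by mean FPKM and genes at 0 everywhere are named, and for likeness the 3 closest transcripts. Genes and lists were chosen with earlier results of these data known. Some items that the naming rule gives are not reported here. With FPKM alone, no counting intervals are given.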

Additional observations from a re-analysis of the deposited data

How the results depend on the processing

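Mid-day and mid-night libraries were compared within age, a term of every fit, so the night effects are paired by age. There are no replicate numbers to pair further, because no group holds more than 1 library. Alternatives were pseudocounts, filters, quantile normalization, median centring, robust or untrended eBayes, age alone, and leaving out libraries. The changes of Rom1 and Pde6c to P5 and to P40, of Prph2 to P40 and of Cnga1 to P40 passed in all of them. The number of genes called from P5 to P20, 1 (Rlbp1) in the report, was 0 at a pseudocount of 5, with no filter, after quantile normalization, after median centring and with age alone, and 0 to 1 when 1 library was left out. The number called from E21 to P5 ran from 2 to 5 and from E21 to P40 from 4 to 7 when 1 library was left out. The call of Rlbp1 from E21 to P40 had adjusted p from 0.00345 to 0.0671. Of the uncalled estimates recomputed (to P5 for Cnga1 and Rlbp1, P20 to P40 for Cnga1, and the late night effects of both), those that changed sign were to P5, of Cnga1 (-0.0073 without P5 mid-night; from -0.0073 to 0.65 over the libraries left out) and Rlbp1 (0.03 without E21 mid-night and 0.11 without P5 mid-day; from -0.35 to 0.11). At a pseudocount of 1, the ratio differences of Pde6c to Pde6b (1.68), Rbp3 to Rlbp1 (1.71) and Cnga3 to Cnga1 (-0.96) each passed, at an adjusted p of 0.0381. For the first 2, the exact permutation p was already the smallest possible, 0.0286, at a pseudocount of 0.1. Their adjusted p fell as Cnga3 to Cnga1 reached the same value. Pde6b and Cnga3 were at most 0.510 and 0.550 FPKM, so with 1 added their ratios mostly follow Pde6c and Cnga1. The causes of the ratio differences were not tested. After median centring, transcripts called from E21 to P40 numbered 2175 up and 2004 down, in place of 1602 and 2674. With 1 library left at an age, it is assumed to vary like the others. Depth limits Pde6b and Cnga3 most. With no filter both entered the fit, and 9 genes were called from E21 to P40, these 2 included, against 4202 of 13972 transcripts. From E21 to P5 it was 6, against 1200 of 13972 transcripts. For Pde6b and Cnga3 such calls rest on values near the floor.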

Other observations

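Nrl, a transcription factor of rods, was highest at E21 and fell by 2.03 to P40 on the log2(FPKM + 1) scale (limma, adjusted p = 0.00034), from 3.50 ± 1.07 to 0.0832 ± 0.0695 FPKM (mean ± SD, n = 2). Nrl was chosen after its values were seen.

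Single retinoid genes outside the text above fell as well. Crabp1, a carrier of retinoic acid inside cells, changed by -2.63 ± 0.18 between E21 and P40 (limma, adjusted p = 6.15e-05). It was higher at P5 (9.996 and 8.64 FPKM) than at E21 (5.57 and 5.77), and low by P20 (0.292 and 0.393). Crabp2, another carrier, changed by -3.58 ± 0.22 between E21 and P40 (limma, adjusted p = 4.01e-05). Aldh1a2, an enzyme that makes retinoic acid, changed by -1.75 ± 0.29 (adjusted p = 0.00264). Matrix markers fell over the same span in 7 of 8 cases, against 26.8% of all transcripts. The part of matrix cells in these changes was not tested. These 3 genes too were chosen after their values were seen, and others of the same list rose.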
